A study of Mus musculus with 2 samples.

Results

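The Wnt signalling set described here comprised 52 genes, taken by gene symbol from the deposited gene tables out of 55536 annotated genes. The genes fell into 10 roles, which ran from 18 Wnt ligands, 10 frizzled receptors, 2 LRP co-receptors, 4 R-spondins and 3 LGR receptors to 2 membrane E3 ligases, 3 genes of Axin and Apc, beta-catenin itself, 4 TCF/LEF factors and 5 extracellular inhibitors. They were measured in adrenal gland tissue of female mice aged 2 months by total RNA-seq. That method reads all RNA left after ribosomal RNA is reduced. The strain was B6CASTF1/J, a first-generation hybrid of C57BL/6J and CAST parents, and no genetic change or treatment was named. All samples belonged to 1 group with 2 biological replicates, called animal 1 and animal 2 below, each with 1 library made from 300 ng of RNA. The labels conflicted on the animals, because the biosample descriptions gave different animal numbers, while the library descriptions gave the same number for both and the donor entry was shared. The replicate numbers were followed, so that "animal" below stands for a biological replicate and a single animal cannot be told apart from 2. With 1 group there was no comparison of conditions, and a difference between the animals carries no p-value and may be technical.

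Wnt proteins are secreted lipid-modified signals that bind frizzled receptors together with the co-receptor LRP5 or LRP6. Binding stops a complex built on axin and APC from marking beta-catenin for destruction, and beta-catenin then acts with TCF/LEF factors on target genes. R-spondins act through LGR receptors to remove the E3 ligases ZNRF3 and RNF43, which otherwise clear frizzled receptors from the membrane. In the adrenal cortex the pathway is known for its activity in the outer zone, the zona glomerulosa, and for R-spondin made by the capsule around it.

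The libraries held 34517566 counts in animal 1 and 36234838 in animal 2. Levels are given as TPM, a relative number of transcripts that divides by length and so allows genes to be compared. A gene listed at 0 may hide 3 counts, equal to 0.0877 CPM in the library of animal 1 and 0.0834 CPM in the other. Markers of steroid-producing cortex were among the most abundant genes, with Star, which moves cholesterol into mitochondria, at 4122 TPM in animal 1 and 4634 TPM in animal 2 and at rank 1 of 22015 nuclear protein-coding genes. The glomerulosa marker Cyp11b2, the aldosterone synthase, stood at 158 and 95.77 TPM and was 1.77-fold higher in animal 1 by counts, while 3 of the 6 glomerulosa markers were higher in animal 2. These values come from tissue of many cell types, so fewer cells of a type and less RNA per cell cannot be told apart.

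In these glands the pathway was represented at every step, but in each family a few genes carried most of the RNA. A level of 1 TPM or more was seen in both animals for 29 of the 52 genes, and one of 10 TPM or more for 8. Fzd2 and Fzd9 reached 1 TPM only in animal 1 and Sfrp2 only in animal 2, and the other 20 genes stayed under 1 TPM in both. Summed, the set held 518 TPM in animal 1, or 0.163% of what nuclear protein-coding genes held together, and 574 TPM in animal 2, or 0.161%. These levels come from the gene tables. The second deposited transcript table, made by another program from the reads, gave other TPM for most genes when summed per gene, nearly always higher. Examples are 90.9 and 151 for Lgr4, 13.1 and 12.5 for Lgr5 and 378 and 377 for Ctnnb1. Of the 52 mean levels, 45 moved by more than the SD between the libraries. At the low end, 7 genes had 3 counts or fewer in both libraries, namely Wnt1, Wnt3, Wnt3a, Wnt7a, Wnt16, Rspo2 and Wif1, and no fold is given for them.

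**Figure D1:**
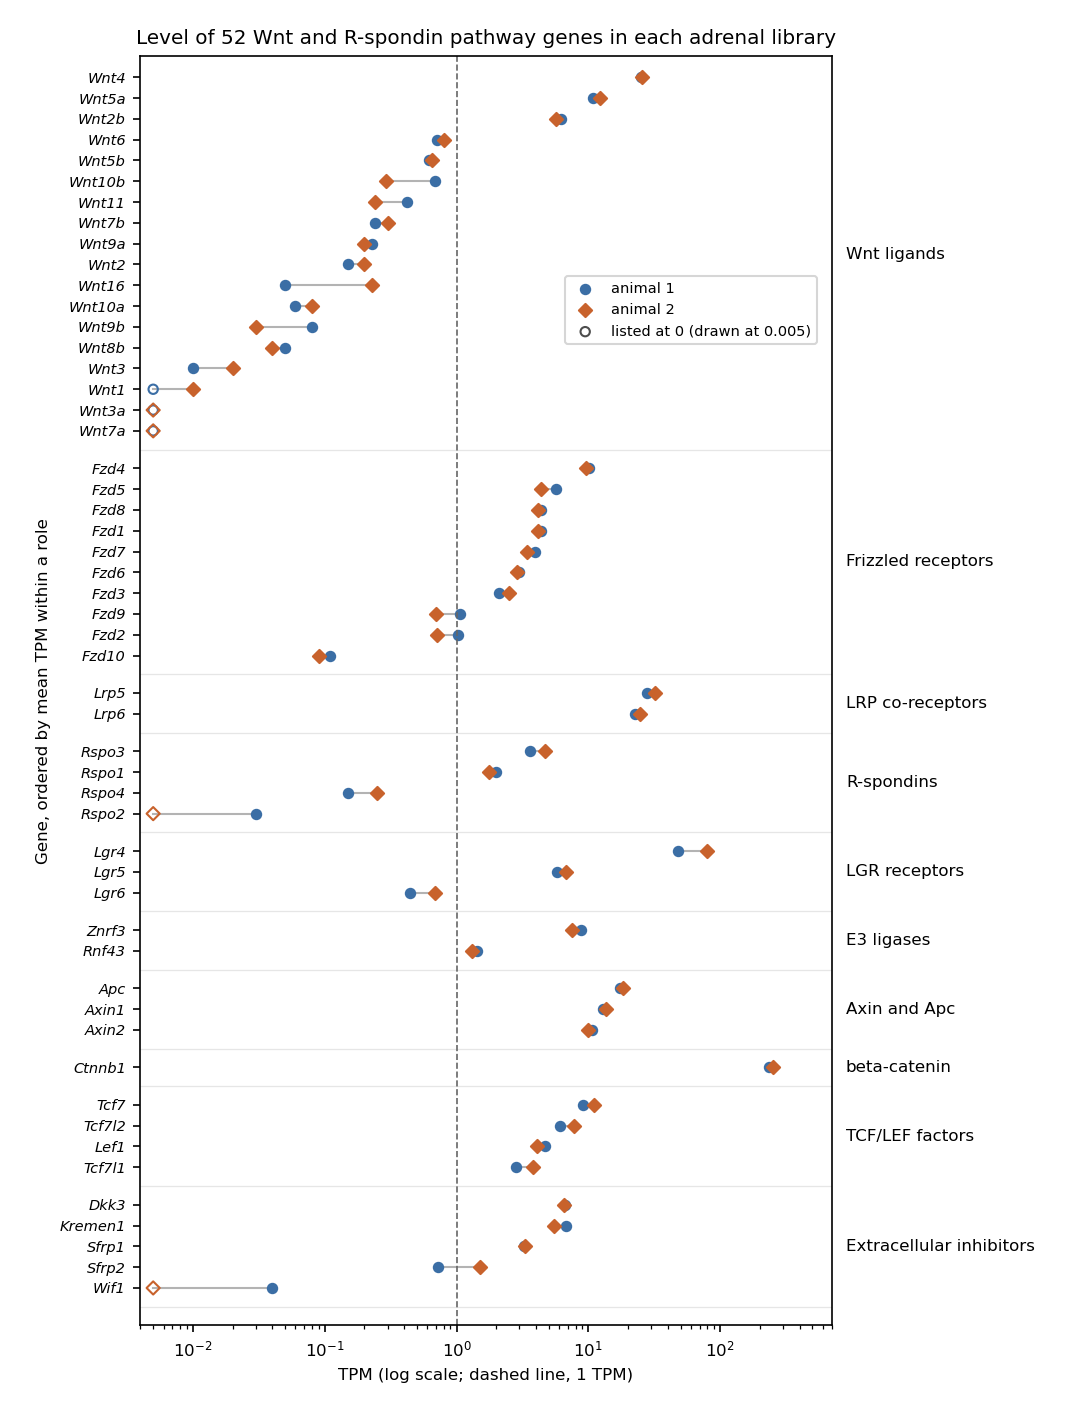
TPM of each of the 52 genes on a log axis, grouped by role and ordered by mean within a role; circles are animal 1, diamonds animal 2, and open symbols a value listed at 0. Ctnnb1 and Lgr4 lie farthest to the right, while 15 of the 18 Wnt ligands lie left of the dashed line at 1 TPM.

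Among the ligands, Wnt4 was the most abundant, followed by Wnt5a and Wnt2b. Wnt4 (chr4:137277489-137299726 on mm10, plus strand), a ligand known from the zona glomerulosa and from development of the female reproductive tract, stood at 25.2 TPM in animal 1 and 25.3 TPM in animal 2. Wnt5a (chr14:28504750-28527448), usually described as acting without beta-catenin, stood at 10.8 and 12.15 TPM. Wnt2b (chr3:104945272-104961921), a relative of Wnt2, stood at 6.19 and 5.73 TPM. The libraries lay close together for these genes, and the ranges of the 3 ligands did not overlap one another.

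Those 3 genes held 92.7% of ligand TPM in animal 1 and 93.3% in animal 2, with Wnt4 alone at 55.4% and 54.7%. None of the other 15 ligands passed 0.80 TPM in either library, and their sum was 3.31 and 3.09 TPM. In the second table, where most genes stood higher, Wnt6 reached 1.36 and 1.17 TPM. Wnt5b and Wnt10b passed 1 TPM in animal 1 there, at 1.31 and 1.22 TPM. The next in order were Wnt6 at 0.71 and 0.80 TPM, Wnt5b at 0.62 and 0.65 TPM, and Wnt10b at 0.69 and 0.29 TPM. Wnt11, Wnt7b, Wnt9a and Wnt2 lay between 0.15 and 0.42 TPM. From Wnt5b down the order was largely unsettled, and over all 18 ligands 6 of 17 neighbouring pairs had ranges that did not overlap.

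The lowest ligands were at the limit of detection. Wnt3a and Wnt7a had 0 counts in both libraries, Wnt1 had 0 and 1, and Wnt3 had 1 and 2. Wnt16 shows how little a TPM means there, since 2 counts in each library gave 0.05 TPM in animal 1 and 0.23 TPM in animal 2. Wnt10a had 5 and 6 counts and Wnt8b had 6 and 4. Wnt9b, known from the developing kidney, had 13 counts in animal 1 and 4 in animal 2.

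The frizzled receptors, which bind Wnt proteins through an outer cysteine-rich domain, were spread more evenly than the ligands. Fzd4 (chr7:89404355-89413134), also the receptor for Norrin in blood vessels, led at 10.2 TPM in animal 1 and 9.67 TPM in animal 2. It held 28.4% and 29.7% of the family's 35.9 and 32.6 TPM. Fzd5 followed at 5.67 and 4.35 TPM, Fzd8 at 4.39 and 4.13 TPM, and Fzd1 at 4.35 and 4.12 TPM, and these 3 neighbours overlapped in range. Fzd7 at 3.96 and 3.42 TPM, Fzd6 at 3.00 and 2.88 TPM and Fzd3 at 2.11 and 2.51 TPM were each separate from the next. In the second table Fzd7 at 6.66 and 4.67 TPM and Fzd6 at 5.29 and 4.21 TPM overlapped. Fzd9 at 1.06 and 0.70 TPM and Fzd2 at 1.03 and 0.71 TPM could not be ordered, and Fzd10 was last with 12 and 9 counts. Fzd3 and Fzd6 are best known for the planar polarity branch of the pathway.

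Both LRP co-receptors, the partners that frizzleds need for signalling through beta-catenin, were more abundant than any frizzled. Lrp5 (chr19:3584828-3686564) stood at 27.9 TPM in animal 1 and 32.2 TPM in animal 2, and Lrp6 at 22.5 and 24.65 TPM. Lrp5 was 1.24 and 1.30 times Lrp6 in the respective libraries.

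**Figure D2:**
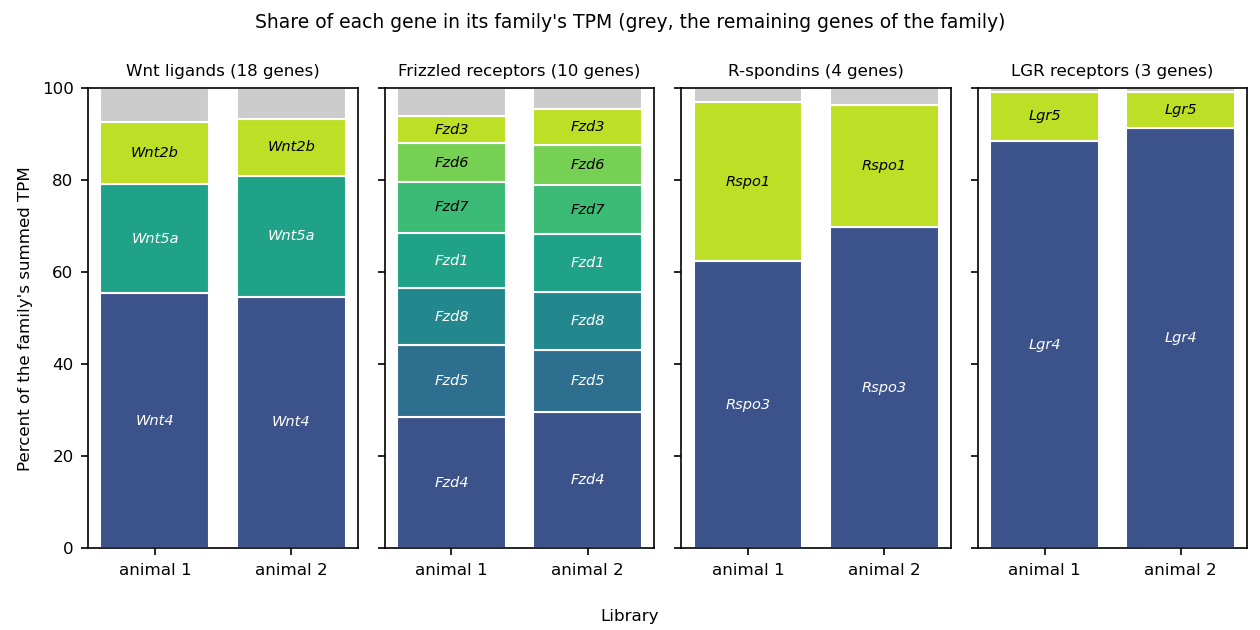
Percent of a family's summed TPM held by each gene, as stacked bars for each library, for ligands, frizzleds, R-spondins and LGR receptors. Wnt4 holds 55.4% and 54.7% of ligand TPM and Lgr4 88.5% and 91.4% of LGR TPM, while Fzd4 holds 28.4% and 29.7% of frizzled TPM.

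On the R-spondin arm, the ligand with most RNA was Rspo3 and the receptor with most RNA was Lgr4. Rspo3 (chr10:29452416-29535867), known as a signal of the adrenal capsule, stood at 3.63 TPM in animal 1 and 4.67 TPM in animal 2. Rspo1, a close relative known from ovary development, stood at 2.01 and 1.77 TPM, so that Rspo3 was 1.81 and 2.64 times as high. Rspo4 had 12 and 19 counts and Rspo2 had 3 and 0. Rspo3 held 62.4% of R-spondin TPM in animal 1 and 69.8% in animal 2.

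Lgr4 (chr2:109917647-110014257, plus strand), a receptor with wide tissue distribution, stood at 48.2 TPM in animal 1 and 78.85 TPM in animal 2. It ranked 944 among 22015 nuclear protein-coding genes and was the second most abundant of the 52 genes. Lgr5 (chr10:115450311-115587780), a stem cell marker of the gut, stood at 5.80 and 6.77 TPM, and Lgr6 at 0.44 and 0.69 TPM. Lgr4 was thus 8.30 times Lgr5 in animal 1 and 11.6 times in animal 2.

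Of the E3 ligases that R-spondin signalling removes, Znrf3 (chr11:5276324-5444847) was well above Rnf43. Znrf3 stood at 8.78 TPM in animal 1 and 7.55 TPM in animal 2, and Rnf43 at 1.43 and 1.31 TPM. The ratio of Znrf3 to Rnf43 was 6.14 and 5.76.

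Inside the cell, Ctnnb1, which codes for beta-catenin, had the highest level of the whole set. It lies at chr9:120929216-120960507 and stood at 235 TPM in animal 1 and 251 TPM in animal 2, rank 186. Ulk4, on the opposite strand, shares 759 exon bases with it and held 50 and 65 counts, against 18935 and 18346 for Ctnnb1. The scaffolds of the destruction complex followed in the order Apc, Axin1 and Axin2, with no overlap between them. Apc stood at 17.5 and 18.4 TPM, and Axin1 at 12.95 and 13.6 TPM. Axin2 (chr11:108920349-108950783), which is both a brake on the pathway and its most used target gene, stood at 10.6 TPM in animal 1 and 9.93 TPM in animal 2.

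All 4 TCF/LEF factors, the DNA-binding partners of beta-catenin, were above 1 TPM in both libraries. Tcf7 (chr11:52252371-52283014, minus strand), also a T cell factor, led at 9.06 TPM in animal 1 and 11.1 TPM in animal 2. Tcf7l2, the form known from the gut, stood at 6.10 and 7.83 TPM. Lef1 (chr3:131110471-131224356) stood at 4.65 and 4.06 TPM, and Tcf7l1, often a repressor, at 2.85 and 3.80 TPM. In the gene tables the order of the 4 was the same in both libraries, with no overlap between neighbours. In the second table it was not, since Tcf7l2 at 17.8 TPM passed Tcf7 at 17.6 TPM in animal 2, and Lef1 and Tcf7l1 stood at 8.03 and 6.57 TPM in animal 1 but at 4.93 and 7.14 TPM in animal 2.

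Among the extracellular inhibitors, Dkk3, a divergent relative of the Dickkopf proteins, and Kremen1, a receptor for Dickkopf proteins, overlapped at the top. Dkk3 stood at 6.64 TPM in animal 1 and 6.55 TPM in animal 2, and Kremen1 at 6.75 and 5.48 TPM. Sfrp1, a secreted decoy with a frizzled-like domain, stood at 3.25 and 3.29 TPM. Its relative Sfrp2 was lower, at 0.72 and 1.51 TPM, and Wif1, a secreted Wnt-binding protein, had 3 and 0 counts.

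Promoter sequence was examined for 34 genes of the set, in 44 RefSeq windows of 250 bases before a start site (GRCm38.p6). Each start site was taken once per gene. The 3 motifs searched on both strands were the TCF/LEF motif CTTTGAT, the half-site AAGGTCA of NR5A receptors such as the cortical factor SF-1, and the GC box GGGCGG. The TCF/LEF motif was in 2 of the 44 windows (4.55%), those of Wnt5b and Wnt11, against 3.21% of 32851 windows of all genes. The NR5A half-site was in 1 window (2.27%), that of Tcf7, against 4.08%. The GC box was in 31 windows (70.5%) against 32.7%, and several of these genes have more than 1 window, some of them overlapping. A match is a run of letters and not a shown binding site. The other 18 genes of the set, Apc and Fzd8 among them, were not examined here. The windows of all genes were not limited in the same way, so the percentages come from unlike sets and were not tested against each other.

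The sequences below belong to the most abundant receptor of the R-spondin arm, to the usual target gene, and to the genes with a TCF/LEF or NR5A match just before the start of their leading transcript. Each is written 5′ to 3′ on the gene's own strand, ends at the base before the RefSeq start site, and has motif matches in capitals. The Lgr4 window (chr2:109917397-109917646, plus strand) held none of the 3 motifs. The Axin2 window (chr11:108920099-108920348, plus strand) held GC boxes that began 58 and 20 bases before the start. The Wnt11 window (chr7:98834862-98835111, plus strand) held the TCF/LEF motif in reverse, 51 bases before the start and directly after a GC box. For Tcf7 only the last 116 bases are shown (chr11:52282596-52282711, minus strand), because an exon of Tcf7-202 lies before them. The annotated start of Tcf7-201 is 24 bases past the RefSeq one, and the half-site stands in reverse 13 bases before the RefSeq start.
Lgr4: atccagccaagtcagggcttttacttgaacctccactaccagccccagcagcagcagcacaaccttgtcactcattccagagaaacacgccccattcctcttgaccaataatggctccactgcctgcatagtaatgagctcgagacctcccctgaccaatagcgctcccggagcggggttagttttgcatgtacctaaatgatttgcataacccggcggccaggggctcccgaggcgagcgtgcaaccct
Axin2: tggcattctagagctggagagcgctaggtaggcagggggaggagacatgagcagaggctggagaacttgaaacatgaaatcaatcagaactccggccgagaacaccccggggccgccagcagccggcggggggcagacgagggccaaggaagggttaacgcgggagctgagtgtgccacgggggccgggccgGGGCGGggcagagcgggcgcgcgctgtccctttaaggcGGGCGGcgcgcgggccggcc
Wnt11: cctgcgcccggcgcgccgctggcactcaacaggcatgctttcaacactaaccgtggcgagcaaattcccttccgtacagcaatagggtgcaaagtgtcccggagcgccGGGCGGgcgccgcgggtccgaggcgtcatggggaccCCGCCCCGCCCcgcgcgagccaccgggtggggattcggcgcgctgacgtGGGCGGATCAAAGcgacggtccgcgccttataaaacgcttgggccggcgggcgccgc
Tcf7: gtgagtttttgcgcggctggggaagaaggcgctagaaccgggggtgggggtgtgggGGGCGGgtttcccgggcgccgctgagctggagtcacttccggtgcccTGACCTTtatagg

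The animals were then compared gene by gene on counts scaled by library, which are not divided by transcript length as TPM is. This was done for the 36 genes with a mean of at least 30 counts. Most of the pathway differed little between the animals. Lef1, Fzd2, Fzd9 and Wnt10b were over 1.5-fold higher in animal 1, and Sfrp2 and Lgr6 were over 1.5-fold higher in animal 2. These 6 of 36 genes were 16.7%, beside 9.43% of all 14794 genes with as many counts. With spike-in scaling 4 of 36 (11.1%) stood beside 11.7% of all genes, so the larger share was not kept. By direction, the 4 higher in animal 1 stand beside 5.25% of all genes, and the 2 higher in animal 2 beside 4.18%. As a log2 ratio with animal 1 as the base, the median was -0.08 for the 36 genes and -0.02 for all genes, and the median size regardless of sign was 0.20 and 0.18.

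Lef1 had the best-counted of these differences, with 510 counts in animal 1 and 317 in animal 2. It was 1.63-fold higher in animal 1, with a 95% interval of 1.41 to 1.88. Such intervals are exact Clopper-Pearson intervals of the split of a gene's counts, and they cover counting error only, since amplified reads are not separate molecules. With spike-in scaling its log2 ratio went from -0.70 to -0.50, and with TPM to -0.20, both within 1.5-fold. Lef1 shares exon bases with an antisense gene on the other strand that held 12 and 8 counts.

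The remaining 5 rested on fewer counts. Wnt10b, a ligand known for holding back fat cell formation, had 48 counts in animal 1 and 22 in animal 2, which was 2.21-fold higher in animal 1 (1.31 to 3.84). Fzd2 had 128 and 83 counts, 1.56-fold higher in animal 1 (1.17 to 2.08). Fzd9 had 81 and 51 counts, 1.61-fold higher in animal 1 (1.12 to 2.33). The intervals of these 3 reached below 1.5-fold, and Fzd2 and Fzd9 fell within it with spike-in scaling, at log2 ratios of -0.43 and -0.47, as did Fzd2 with TPM at -0.54.
On the other side, Lgr6 had 95 counts in animal 1 and 149 in animal 2, 1.55-fold higher in animal 2 (1.19 to 2.03). Sfrp2 had 48 and 86 counts, 1.77-fold higher in animal 2 (1.23 to 2.58). Both intervals also reached below 1.5-fold, and Lgr6 came within it at log2 ratios of 0.57 with total-count scaling and 0.53 in the second quantification. Lgr6 and Sfrp2 are low members of their families.

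Of the 9 frizzleds with enough counts, 8 were higher in animal 1 and Fzd3 was higher in animal 2, but with spike-in scaling 4 leaned to animal 1 and 5 to animal 2. The family's median log2 ratio was -0.19 as scaled here and 0.02 with spike-ins, while all genes stood at -0.02 and 0.19. Fzd5, with 1239 and 873 counts, was 1.43-fold higher in animal 1 (1.31 to 1.57), and Fzd7, with 614 and 500 counts, was 1.24-fold higher in animal 1 (1.10 to 1.40). Fzd3, with 870 and 1046 counts, was 1.19-fold higher in animal 2 (1.09 to 1.30).

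Lgr4 stood out among well-counted genes on the other side. Its 7863 counts in animal 1 and 10699 in animal 2 gave 1.35-fold in favour of animal 2 (1.31 to 1.39). Of the other receptors, Lrp6 was 1.15-fold higher in animal 2 (1.11 to 1.19) with 5652 and 6571 counts, and Lrp5 was within 1.01-fold with 4733 and 4714. The leading ligands hardly moved, with Wnt4 at 3614 and 3424 counts and Wnt5a at 1569 and 1557. Ctnnb1 and Axin2 were 1.04-fold and 1.03-fold higher in animal 1, a direction that turned with spike-in scaling.

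Smaller differences filled the rest of the set. Kremen1, with 1115 and 850 counts, was 1.33-fold higher in animal 1 (1.21 to 1.45), and Znrf3, with 1562 and 1284, was 1.23-fold higher in animal 1 (1.14 to 1.33). Rspo3, with 379 and 448 counts, was 1.17-fold higher in animal 2 (1.02 to 1.34), and Tcf7, with 668 and 798, was 1.18-fold higher in animal 2 (1.06 to 1.31). Over the 36 genes, 24 leaned to animal 1 and 12 to animal 2, and with spike-in scaling the split was 9 and 27.

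**Figure D3:**
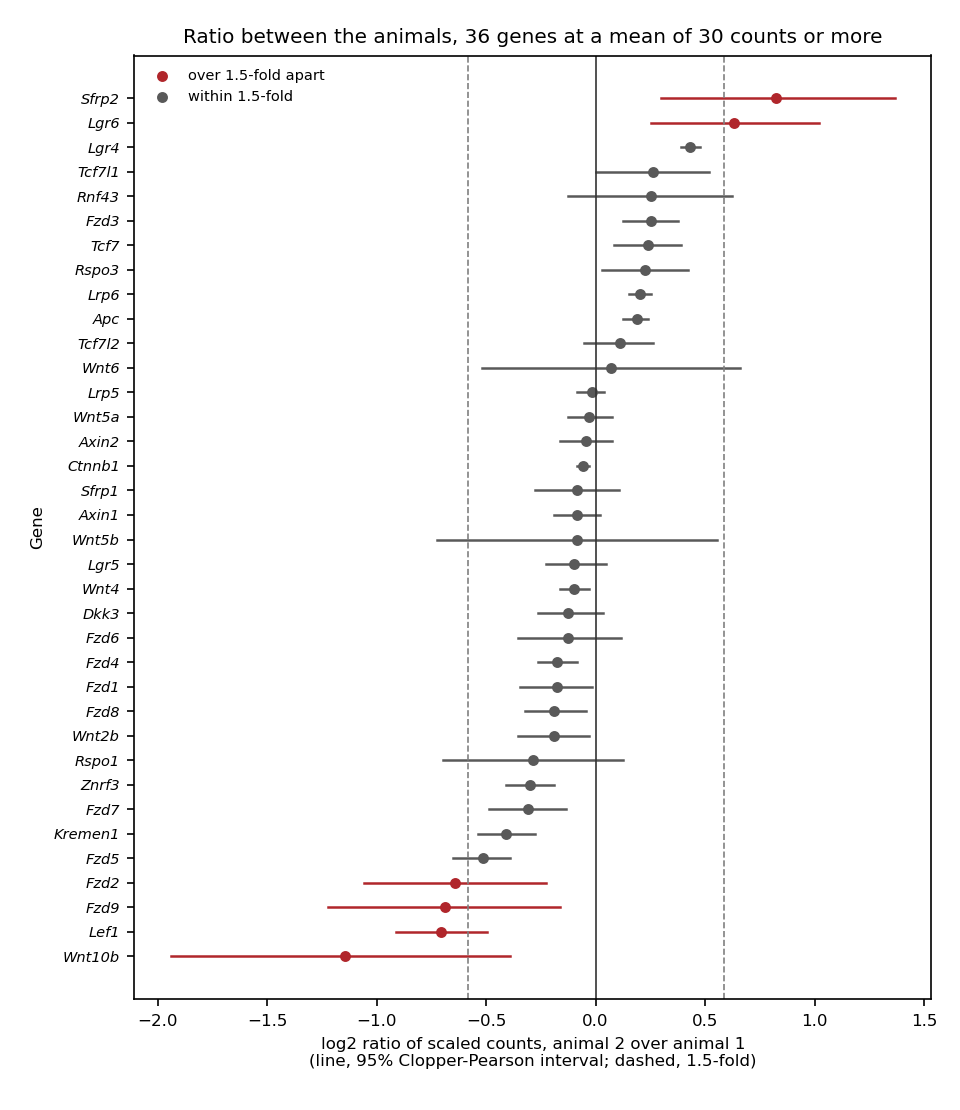
Log2 ratio of scaled counts of animal 2 over animal 1 for the 36 genes with a mean of at least 30 counts, with exact 95% intervals as lines and 1.5-fold as dashed lines. Sfrp2 and Lgr6 lie beyond the right line and Fzd2, Fzd9, Lef1 and Wnt10b beyond the left one, and Lef1 has the narrowest interval of the 6.

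The ratio of a gene on the TPM scale need not equal its ratio of counts, and for several genes they parted. The log2 ratio of Rnf43 was 0.25 by counts and -0.13 by TPM, and that of Lgr5 was -0.09 and 0.22. Lef1 and Lgr4 are followed further here. Lef1 was 1.63-fold higher in animal 1 by counts, while its TPM in animal 2 was 0.873 times that in animal 1. Lgr4 was 1.35-fold higher in animal 2 by counts and 1.64-fold by TPM. A short transcript weighs more in TPM than in counts, and the transcript values of Lef1 and Lgr4 are given below. The median log2 ratio of all genes also went from -0.02 by counts to 0.11 by TPM. The part of either in these gaps was not tested. These transcripts were chosen after their values were seen.

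For Lef1, the coding transcript Lef1-201 held 474 counts in animal 1 and 266 in animal 2. The retained-intron transcript Lef1-208, which is 345 bases long, held 2.23 and 9.87 counts and yet 5.56% and 29.9% of the gene's TPM. In the second transcript table, Lef1-208 held none of the TPM in either library, and Lef1 stood at 8.03 TPM in animal 1 and 4.93 TPM in animal 2. For Lgr4, the noncoding transcript Lgr4-204 of 750 bases held 33.0 counts in animal 1 and 274 in animal 2, and 3.01% and 16.2% of the TPM. In the second table it held 14.9% and 41.4%, higher in animal 2 there as well. The coding transcript Lgr4-201 held 7797 and 10333 counts.

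**Figure D4:**
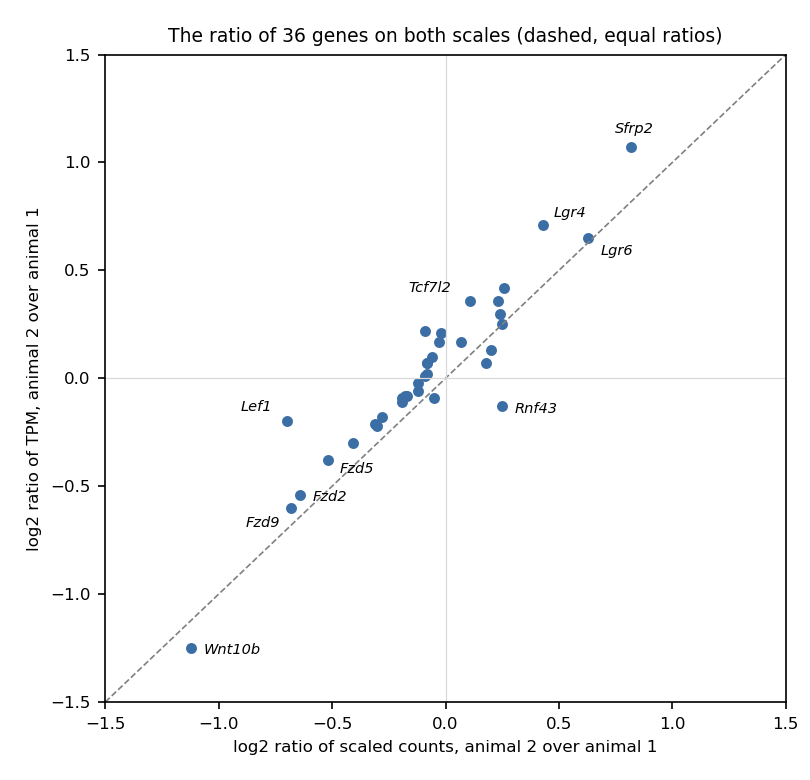
Log2 ratio of TPM against log2 ratio of scaled counts, animal 2 over animal 1 on both axes, for 36 genes, with equal ratios as the dashed line. Most points lie just above the line, Lef1 (-0.70 by counts, -0.20 by TPM) and Lgr4 (0.43 and 0.71) lie well above it, and Rnf43 (0.25 and -0.13) lies below it.

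The leading transcript was examined for the 18 genes with a mean of at least 5 TPM. Taken by its mean over the animals, it was protein coding and the same in both quantifications for all 18. Wnt4, Fzd4 and Dkk3 have 1 annotated transcript, and Wnt2b-201 and Kremen1-201 held over 95% of their gene's TPM in every table. For 5 genes, Wnt5a, Znrf3, Apc, Ctnnb1 and Tcf7l2, the leading transcript held under 60% in the first table. The share moved by more than the SD between the libraries in 9 of the 18 with the second table, where Lgr5-201 held 55.7% and 39.6% against 88.4% and 68.4% in the first.

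Ctnnb1-201 held 44.1% of Ctnnb1 TPM in animal 1 and 32.2% in animal 2. The coding transcript Ctnnb1-214 went from 11.3% to 26.8%, and the retained-intron transcript Ctnnb1-215 held 30.9% and 22.4%. In the second table Ctnnb1-201 led too, at 51.8% and 41.8%, but Ctnnb1-214 held 4.63% and 12.6%, and Ctnnb1-215 held 16.2% in animal 1 and almost none in animal 2. Tcf7l2, with 22 annotated transcripts, had 33.3% and 19.4% in Tcf7l2-209. Apc-203 held 26.8% and 25.5%, close to Apc-202 at 20.7% and 30.2%, so the leader of Apc differed between the animals there. In the second table Apc-203 led in both, at 40.0% and 35.3% against 10.9% and 14.2% for Apc-202. Wnt5a-201 held 46.5% and 42.4%, and Znrf3-201 held 56.1% and 54.4% beside Znrf3-203 at 30.6% and 34.6%.

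Tcf7 is added here although it lay outside that rule, since its promoter was shown. The 2 annotated transcripts begin at different sites, and Tcf7-201 held 64.0% in animal 1 and 72.6% in animal 2. The second table gave 77.6% and 60.1%, so which animal had the larger share depended on the program.

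**Figure D5:**
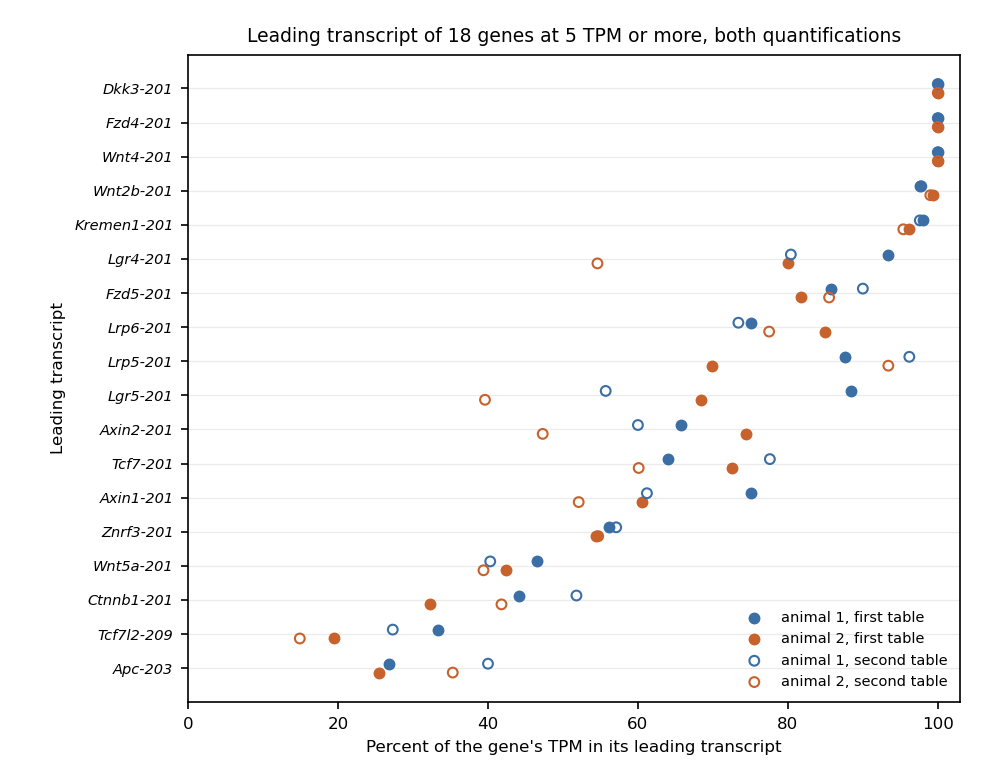
Percent of a gene's TPM in its leading transcript for the 18 genes at a mean of 5 TPM or more, with filled circles for the gene tables' own transcript values and open circles for the second deposited table. Wnt4-201, Fzd4-201 and Dkk3-201 sit at 100% throughout, and Lgr4-201 ranges from 54.6% to 93.3%.

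Beyond the set, 38 other genes of the pathway were taken from a list of secretion factors, kinases, scaffolds, polarity proteins and nuclear partners. Of these, 33 reached 1 TPM in both libraries and none was over 1.5-fold apart among the 38 with a mean of 30 counts, beside 9.43% of all genes. With TPM as deposited 1 passed in each direction, Celsr1 at 1.61 and Notum at 0.640 times the level of animal 1, named here after their values were seen. The median log2 ratio of these genes was -0.03, with 22 on the side of animal 1 and 16 on that of animal 2, a split that became 8 and 30 with spike-in scaling. The highest was Csnk1a1, a kinase that primes beta-catenin for destruction, at 75.4 TPM in animal 1 and 72.6 TPM in animal 2. Gpc4, a heparan sulphate proteoglycan, stood at 58.7 and 60.45 TPM, and Tle3, a corepressor of TCF factors, at 40.0 and 55.6 TPM. Next came Tnks2, which marks axin for breakdown, at 31.6 and 34.4 TPM, and the kinases Gsk3a at 30.1 and 34.3 TPM and Gsk3b at 24.3 and 28.35 TPM. The lowest were Nkd2 at 0.47 TPM in both libraries, Sp5 at 0.64 and 0.59 TPM, and Vangl2 at 0.69 and 0.60 TPM.

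Markers of other cell types and adjoining tissue also differed between the libraries. All 8 kidney markers had counts in animal 1, with a summed level of 20.9 TPM against 0.50 TPM in animal 2. Kap held 78.8% of the sum in animal 1. Kap, Umod, Slc34a1, Slc12a1 and Cdh16, 5 of the 8, were at 0 counts in animal 2. Aqp2 hardly differed, with 13 and 12 counts and 0.28 TPM in each library. All 5 liver markers were over 1.5-fold higher in animal 1 (4 of 5 with spike-in scaling), summing to 180.5 and 115 TPM, and Alb, which codes for albumin, stood at 120 and 80.6 TPM.
Pancreas markers summed to 22.2 and 18.8 TPM, of which Cela1 held 92.1% and 99.7%, and the other 3 were nearly confined to animal 1, with 27 and 0 counts for Ctrb1, 26 and 1 for Pnlip, and 12 and 0 for Cpa1.
All 6 brown fat markers were higher in animal 2 and 5 of them over 1.5-fold, with sums of 653 and 1270.3 TPM. Ucp1, the heat-producing carrier of brown fat, stood at 196 and 429 TPM. The 5 general adipocyte markers summed to 1747 and 1969 TPM, in the opposite order in the second table at 3194 and 2806 TPM, and the only one over 1.5-fold apart, Lep, was 3.23-fold higher in animal 1. These differences run alongside the 6 genes over 1.5-fold apart, and their part in those differences was not tested.

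Within the gland, both markers of the X zone, an inner cortical layer of young mice, were higher in animal 1, led by Akr1c18 at 2320.3 TPM against 1659 TPM. The other, Pik3c2g, passed 1.5-fold, at 1.55-fold by counts. Both passed it with total-count scaling and in the second table, and neither did with spike-in scaling or TPM. All 5 chromaffin markers were higher in animal 1 and none passed 1.5-fold, with Th, the first enzyme of catecholamine synthesis, at 210 and 184 TPM. The 5 macrophage markers were also higher in animal 1 (4 of 5 with spike-in scaling), summing to 121 and 110.3 TPM. Of the 8 capsule and stroma markers 6 were higher in animal 2 and none passed 1.5-fold, with a sum of 137 and 163 TPM, beside Rspo3 at 3.63 and 4.67 TPM. By counts that sum differed by 0.03 on the log2 scale, in the second table it was 259 and 248 TPM, and 5 of 8 were then higher in animal 2. Endothelial markers summed to 169.8 and 191 TPM, beside Fzd4 at 10.2 and 9.67 TPM. By counts the endothelial sum differed by 0.06 on the log2 scale, and in the second table it was 295 and 289 TPM. Mural markers summed to 61.0 and 59.4 TPM, but to 90.7 and 95.2 TPM in the second table. By counts 4 of the 5 were higher in animal 2, with Acta2 at 1.52-fold and a summed log2 ratio of 0.22. Schwann markers summed to 6.08 and 5.77 TPM. Glomerulosa markers summed to 407 and 401 TPM while Wnt4 stood at 25.2 and 25.3 TPM, and that sum joins opposite differences, with Cyp11b2 higher in animal 1 and Dab2 1.30-fold higher in animal 2. The part of these markers in the levels of the Wnt genes was not tested.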

How the data were processed

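Total RNA-seq of 2 adrenal gland libraries was used. All tables used mm10 and GENCODE M21, per the deposited file list. Column names are those of RSEM and, for the second transcript table, kallisto, per the file headers, and aligner and versions are not given in the sources used here. For each gene and transcript the authors deposited an expected count and TPM, which has a fixed sum over a file. In the deposited transcript table, each transcript's percent of gene TPM is given too.

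Genes were matched to 55536 annotated genes by identifier. The members and lists were chosen with earlier results of these data known. Libraries were scaled by the trimmed mean of M-values in edgeR 4.0.16 (R 4.3.3) on expected counts rounded to whole numbers, with factors of 1.02 and 0.981. Ratios are animal 2 over animal 1. Folds are of scaled counts as deposited, which were whole for all 52 genes, and log2 ratios add a prior of 0.5 counts. Intervals at 95% are exact Clopper-Pearson (SciPy 1.17.1). Genes over 1.5-fold apart at a mean of 30 counts or more were counted. No test was run between the animals. The steps were tested on simulated data with less spread between libraries than these had, and the intervals on counting error alone. That test does not show how the calls behave at the spread of these libraries. The libraries differed beyond sampling noise, with a chi-square of 90.0 per degree of freedom over 14794 genes, and were kept as separate replicates.

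Every member could be named. Of the other pathway genes the 6 highest, the 3 lowest and any over 1.5-fold apart were named, and of each marker list the first gene and the sum. Transcripts were named for members at 5 TPM or more with under 60% of TPM in the leading one or with different leaders in the quantifications. Alternatives were DESeq2 1.42.0 size factors, spike-in, TPM and total-count scaling, the second table, other filters, folds and priors, and leaving out either library. Sequences come from RefSeq.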

Additional observations from a re-analysis of the deposited data

How the results depend on the processing

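The 6 of 36 genes over 1.5-fold apart (16.7%, beside 9.43% of all genes) became 3 of 31 with a minimum of 100 counts (9.68%, beside 5.68%), 13 of 50 with no filter (26.0%, beside 35.0%) and 1 of 36 at 2-fold (2.78%, as over all genes). Spike-in scaling moved the median log2 ratio of all genes from -0.02 to 0.19 and that of the 36 pathway genes from -0.08 to 0.12, with 27 of the genes then above equality and 9 under it. With TPM as deposited the medians were 0.11 and 0.01, with 19 above and 17 under. Spike-in scaling shifts every ratio by the same amount, so it cannot change where the set's median lies relative to all genes. That median lay on the animal 1 side by counts and with TPM. Spike-in scaling gave 4 genes over 1.5-fold (11.1%, beside 11.7% of all genes), 3 of them among the 6, and Lgr4 was the added one there and with TPM. Of the 36 ratios, 15 changed sign with spike-in scaling, 9 with TPM and 1 with the second table. None of the 6 reversed, but they were picked for ratios over 1.5-fold, which the spike-in shift was too small to turn. DESeq2 size factors and a prior of 2 changed no sign.

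The number of genes at 1 TPM in both libraries, 29, was 32 in the second table. It was 34 with a threshold of 0.5 TPM and 27 with one of 2 TPM. Leaving out either library lifts the need for both, so the number could only stay or rise, and it was 30 to 31. The share of Wnt4 in ligand TPM, 55.0%, was 54.3% in the second table and 59.0% by counts. By counts the share of Fzd4 went from 29.1% to 33.2% and that of Rspo3 from 66.1% to 77.3%. Shares by counts and by TPM are unlike measures, since counts are not divided by length and a longer transcript weighs more in them. The cause of the shift with the second table was not tested. Leaving out either library gave shares of 54.7% to 55.4% for Wnt4, 28.4% to 29.7% for Fzd4, 62.4% to 69.8% for Rspo3 and 88.5% to 91.4% for Lgr4. A ratio between the animals needs both libraries, so none could be left out there. No paired analysis was possible because the labels give 1 group. Depth limits what can be said of the 16 genes under a mean of 30 counts, and 2 libraries do not separate biological from technical spread.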
